A study of Homo sapiens with 21 samples.

Results

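The probesets described here carry no gene symbol and lie between probesets of different genes on an exon-level array. The 1384231 probesets of the deposited table were sorted by their numeric id. An unnamed probeset was taken when the nearest probeset with a single gene symbol below it and the nearest above it carried different symbols. Of 1014733 unnamed probesets, 734207 met this rule, and 282399 of these (38.5%) reached, as their mean log2(intensity + 16) over the 21 arrays, the table's median probeset level of 5.18. These 282399 kept members were 20.4% of the table, and their mean level ran from that threshold to 13.4 with a median of 5.91. The members next to the threshold lay at 5.18 on both sides of it. No measured change entered the rule, but a dim probeset that rose strongly passes the filter more easily than one that did not, so counts of members refer to kept members only.

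Members between the same pair of named probesets share their surroundings and often their source, so they were grouped into what is called a gap here, named by its lower and higher neighbour gene. There were 19365 gaps with a kept member and a median of 7 kept members per gap. The 14685 gaps with at least 3 kept members, holding 275693 members, each received 1 value per array, the median of their kept members. The other 6706 members were treated singly.

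The cells were MCF10A, an immortalised, non-tumorigenic human mammary epithelial line. Cultures were plated for 24 h without epidermal growth factor (EGF), kept for another 24 h in starvation medium containing 1% horse serum, and given 20 ng/ml EGF. They were collected at 0 min (before EGF) and at 20, 40, 60, 120, 240 and 480 min, with 3 biological replicates (A, B and C) at each time, which makes 21 arrays. Every group therefore shares the starvation, and no untreated culture accompanied the later times, so EGF cannot be told apart from handling or time in culture.

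Whole-transcript arrays of this kind carry probes along exons, introns and much of the sequence between genes, and RNA depleted of ribosomal RNA without selection for poly(A) tails keeps unprocessed and nonpolyadenylated transcripts. RNA polymerase II normally transcribes beyond the annotated end of a gene, and long noncoding RNAs, microRNA precursors and unannotated last exons also lie between named genes. EGF acts through its receptor and the ERK kinase cascade to induce immediate early genes such as EGR3 and ATF3 within minutes. FOSL1, feedback phosphatases such as DUSP1 and DUSP5, and EGF-family ligands such as EREG, AREG and TGFA are induced as well. PI3K-AKT signalling turns off FOXO target genes such as FBXO32. The probe sequences of the array were not used here, so a member is placed only by its neighbours.

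Sequences are shown for the annotated genes that lie inside gaps the results turn on, to show which products and control elements stand there. All come from RefSeq on GRCh38.p14. In the microRNAs the capitals mark the seed, bases 2 to 8. MIR29A and MIR29B1 lie between KLF14 and PODXL, and their main products share a seed:

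hsa-miR-29a-3p: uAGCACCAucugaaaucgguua

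hsa-miR-29b-3p: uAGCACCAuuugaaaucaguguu

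MIRLET7A3 and MIRLET7B lie between ATXN10 and PPARA and share the let-7 seed:

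hsa-let-7a-5p: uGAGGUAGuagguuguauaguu

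hsa-let-7b-5p: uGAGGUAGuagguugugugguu

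MIR15A and MIR16-1 lie inside the annotated span of DLEU2, the noncoding neighbour of a falling gap:

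hsa-miR-15a-5p: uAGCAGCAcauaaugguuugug

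hsa-miR-16-5p: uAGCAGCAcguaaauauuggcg

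The mature miR-29a sequence stands at chr7:130876748-130876769, let-7b at chr22:46113691-46113712 and miR-15a at chr13:50049167-50049188.

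Promoter windows, 250 bases before to 50 after the annotated start, are shown for AREG and LUCAT1. These genes are the EGF-family ligand and the long noncoding RNA that the reference places inside the gaps EREG–PARM1 and LYSMD3–ARRDC3, in which 18 of 28 and 9 of 20 kept members were called higher. Capitals in the AREG window (chr4:74444886-74445185, plus strand) mark a cyclic AMP response element (TGACGTCA) 65 bases before the start and a TATA box (TATAAA) 29 bases before it:

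AREG: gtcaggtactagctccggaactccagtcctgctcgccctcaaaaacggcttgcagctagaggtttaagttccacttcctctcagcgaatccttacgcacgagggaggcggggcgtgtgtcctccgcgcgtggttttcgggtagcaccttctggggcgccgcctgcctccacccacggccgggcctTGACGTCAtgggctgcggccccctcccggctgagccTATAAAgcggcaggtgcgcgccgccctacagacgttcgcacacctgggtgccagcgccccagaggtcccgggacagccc

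Capitals in the LUCAT1 window (chr5:91314353-91314652, minus strand) mark a match to the AP-1 motif TGANTCA, the site of FOS and JUN dimers, 52 bases before the start:

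LUCAT1: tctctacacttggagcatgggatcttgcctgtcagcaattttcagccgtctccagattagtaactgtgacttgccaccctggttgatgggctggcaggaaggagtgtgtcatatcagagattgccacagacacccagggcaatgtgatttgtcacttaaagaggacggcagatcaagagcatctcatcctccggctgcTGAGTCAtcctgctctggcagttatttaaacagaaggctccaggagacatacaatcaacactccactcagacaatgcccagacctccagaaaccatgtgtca

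Of 35116 RefSeq promoter windows of this length, 1.85% held TGACGTCA and 7.71% held TGANTCA on either strand, and 7.33% held TATAAA on the gene's strand. A match describes the letters of a window and does not show that a factor binds there.

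The share of members called, rises and falls together, was smaller than that of probesets of named genes, and the distance between the shares widened with time. At 20, 40 and 60 min, falls were called in 0.0616%, 0.390% and 0.844% of members. Among single-symbol probesets these shares of falls were smaller, at 0.0452%, 0.325% and 0.830%. The kept single-symbol probesets were also brighter, with a median level of 6.95 against 5.91 for members. A call here means a Benjamini-Hochberg adjusted p under 0.05 in limma's two-sided test of a time against 0 min, adjusted over all 692116 kept probesets of the table. At 20 min 703 members were called higher (0.249%) and 174 lower (0.0616%), against 0.516% and 0.0631% of all kept probesets. At 40 min the counts were 1906 higher (0.675%) and 1100 lower (0.390%), against 1.16% and 0.524%. At 60 min they were 3701 (1.31%) and 2383 (0.844%), against 2.21% and 1.1%. By 120 min, 4527 members were higher (1.60%) and 4045 lower (1.43%), where the background was 3.5% and 1.79%. At 240 min the counts were 4889 higher (1.73%) and 3327 lower (1.18%), against 3.77% and 2.14%. At 480 min rises and falls were nearly equal, 5053 (1.79%) and 5098 (1.81%), against 4.02% and 3.03% of all kept probesets. Over the 6 contrasts together, limma's F-test called 16771 members (5.94%, against a background of 11.2%), of which 9146 had a rise and 7625 a fall as their largest change.

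These counts depended on single arrays. At 20 min the 877 members called became 3151 without replicate C of that time, 518 without A and 441 without B. Without C the balance also turned, to 1223 higher and 1928 lower. At 40 min, 3006 became 1733 without 40 min B and 1672 without 40 min C. At 60 min, 6084 became 3490 without 0 min B and 2517 without 60 min C. At 120 min, 8572 became 5082 without replicate B and 3961 without C. At 240 min, 8216 became 5355, 4167 and 3644 without A, B and C. At 480 min, 10151 became 6762 without 0 min C, 4937 without 480 min A and 4918 without 480 min C. With the array index, the median log2 level of named minus unnamed probesets on each array, as a covariate, 6008 members were called at 40 min and 17692 at 480 min. That index was 1.24 ± 0.02 (SD, n = 3) at 0 min and averaged 1.27 to 1.32 at the later times, and its part in the counts was not tested.

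Unnamed probesets lying within a single gene followed another course. Among them 1.32% were called at 20 min and 5.61% at 120 min, falling to 4.24% at 480 min. Among single-symbol probesets 0.493% were called at 20 min, 7.47% at 120 min and 12.1% at 480 min. The share among members rose from 0.311% at 20 min to 3.04% at 120 min and 3.59% at 480 min, below both other classes at each of the 6 times. These shares describe the classes and were not tested against each other.

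**Figure D1:**
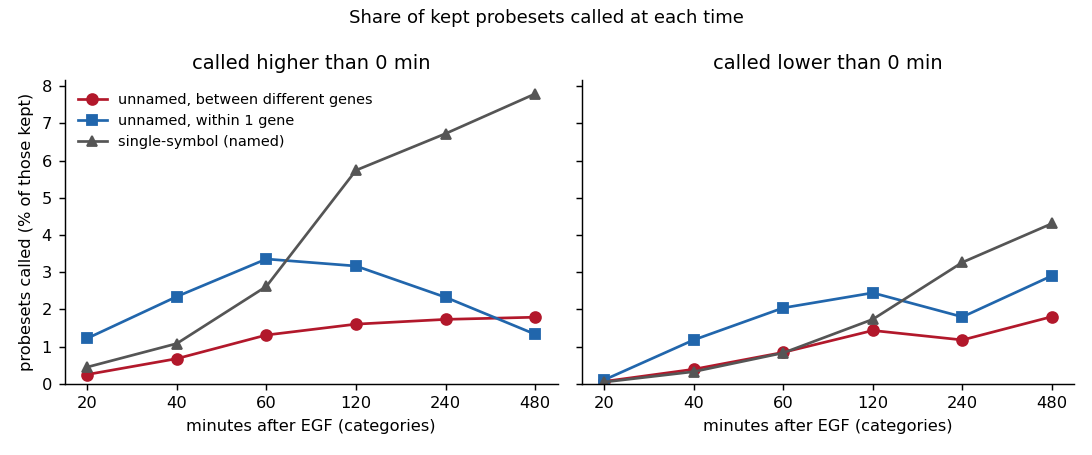
Percent of kept probesets called higher (left) and lower (right) than 0 min at each time (categories, minutes after EGF), for unnamed probesets between different genes, unnamed probesets within 1 gene and single-symbol probesets. Members stay under 2% in both directions, while single-symbol probesets reach 7.79% higher and 4.31% lower at 480 min.

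Taken as gaps, 1104 of 14685 (7.52%) changed by the F-test, with a rise as the largest change in 581 and a fall in 523. Calls for gaps were adjusted over 31299 features, the gaps together with 16614 named genes, among which 16.8% were called by the F-test. At 20 min 41 gaps were called higher and 24 lower (0.279% and 0.163% of gaps, against 0.581% and 0.112% of gaps and genes together). At 40 min 91 were higher and 73 lower (0.620% and 0.497%, against 1.2% and 0.425%). At 60 min 193 were higher and 117 lower (1.31% and 0.797%, against 2.88% and 0.818%). At 120 min 232 were higher and 332 lower (1.58% and 2.26%, against 6.11% and 2.5%). At 240 min 287 were higher and 258 lower (1.95% and 1.76%, against 7.23% and 3.69%). At 480 min 263 were higher and 335 lower (1.79% and 2.28%, against 8.13% and 4.37%). Only 2 gaps were called higher at some time and lower at another. Without 20 min replicate C, 321 gaps were called at 20 min in place of 65, 116 higher and 205 lower, so that the balance turned. Without 20 min A, 0 min A or 20 min B, 42, 42 and 30 were called. At 40 min, 164 became 105, 106, 91 and 93 without 0 min A, 0 min C, 40 min B and 40 min C. At 60 min, 310 became 193 without 0 min B and 139 without 60 min C. At 120 min, 564 became 368, 301 and 290 without 0 min C, 120 min B and 120 min C. At 240 min, 545 became 340 without B and 282 without C, and at 480 min 598 became 337 without 480 min A and 333 without 480 min C. Without 0 min C, 209 gaps were higher and 196 lower at 480 min.

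The calls were scattered over many places. The 16771 called members lay in 6657 gaps, 3563 of which held a single called member, while 728 gaps with at least 5 held 7099 of them (42.3%). Of the 16771, 4185 lay in gaps that were themselves called.

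The gap with the largest rise was FIBP–FOSL1, on the 3′ side of FOSL1, an AP-1 transcription factor that ERK signalling induces and stabilises. Its log2 level was 5.64, 5.14 and 5.12 in replicates A, B and C at 0 min and 8.69, 8.66 and 8.64 at 40 min. The arrays of the 2 times stood far apart, and the spread within 40 min was small. The change was 3.36 ± 0.15 (log2, limma standard error of 3 arrays against 3, as for all ± values of changes below; adjusted p = 4.77e-12), a 10.3-fold rise. It had reached 2.02 at 20 min, held at 3.35 at 60 and 120 min and was 2.56 at 480 min. FOSL1 itself rose by 2.67 ± 0.13 at 40 min, and FIBP, the neighbour on the other side, changed by 0.12 ± 0.11 (adjusted p = 0.774). The reference also places CCDC85B between them, on the other strand, and its change at 120 min was 0.82. The gap held 3 kept members, of which the pair at the FIBP end rose by 3.39 and 3.86 and the member nearest FOSL1 changed by 0.18. The member that rose by 3.39 had a 0 min mean of 4.66, below the filter threshold, and was kept through its later levels. The gap needed it to reach 3 kept members. A median of 3 members can fall on different members at different times. The change of 3.36, the small spread at 40 min and the later course therefore describe this middle value. They are not the course of 1 probeset.

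Several gaps had their largest rise at 20 min. ATF3–GARIN4 lies on the 3′ side of ATF3, a stress and growth factor responsive transcription factor. Its levels were 5.23, 5.40 and 5.27 at 0 min and 9.36, 8.89 and 6.19 at 20 min. All 3 arrays at 20 min were higher than those at 0 min, but replicate C lay far below A and B. The change was 2.85 ± 0.45 (adjusted p = 0.00153) and had returned to 0.78 by 40 min (adjusted p = 0.56), while ATF3 rose by 1.92 ± 0.16 at 20 min. With the 4 dimmer probesets of this gap included the change was 0.60.

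ADAMTSL4-AS1–MCL1 lies on the 3′ side of MCL1, which encodes a short-lived antiapoptotic BCL2-family protein. All of its 15 probesets passed the filter, and 14 were called higher at 20 min. The levels were 5.82, 6.05 and 5.98 at 0 min and 8.30, 8.43 and 7.76 at 20 min, without overlap. The gap rose by 2.21 ± 0.21 (adjusted p = 1.61e-06) and declined over the later times to 0.58 ± 0.21 at 480 min (adjusted p = 0.0838). MCL1 rose by 1.05 ± 0.13, so that the gap rose by 1.16 ± 0.18 more than the gene did (adjusted p = 0.000583 for the difference).

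MORN4–AVPI1, on the 3′ side of AVPI1, a vasopressin-induced gene linked to MAP kinase signalling, gave a pulse confined to 20 min among the 6 later times. Its levels were 6.38, 6.38 and 6.51 at 0 min, 8.30, 8.10 and 7.90 at 20 min, and the change was 1.68 ± 0.10 (adjusted p = 8.75e-10). All 8 probesets were kept and 7 were called. At 40 min the change was 0.21 (adjusted p = 0.407), and it lay between -0.21 and 0.01 from 60 min on. AVPI1 changed by 0.42 ± 0.15 at 20 min (adjusted p = 0.181), and the gap rose by 1.25 ± 0.20 more than it (adjusted p = 0.000719). The reference also places PI4K2A between MORN4 and AVPI1, with its strand not known here.

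Other gaps with their largest rise at 20 min were LIMA1–FAM186A (1.84 ± 0.14, falling to 0.64 at 40 min), TGIF1–ZNF592 (1.85 ± 0.18) and KRT6C–KRT6A (2.01 ± 0.21). The LIMA1–FAM186A change was 0.20 and no longer called when only probesets above the 75th percentile were kept. TGIF1 encodes a transcriptional corepressor of TGF-beta signalling and rose by 0.93 ± 0.12, but ZNF592 lies on another chromosome in the reference, so the place of the members between them is uncertain. Including its 12 dimmer probesets, that gap changed by 0.01. The KRT6C–KRT6A gap was still called at 480 min (0.72, adjusted p = 0.0305), and it also holds 11 probesets that carry several symbols, and near-identical keratin genes can share probes there.

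DUSP1, the dual-specificity phosphatase that dephosphorylates ERK and other MAP kinases, borders a gap with fewer than 3 kept members toward CCNQ. The stronger of its members, probeset 2887310, had levels of 5.11, 5.76 and 5.61 at 0 min and 8.81, 9.02 and 8.34 at 20 min. It rose by 3.23 ± 0.24 (adjusted p = 6.40e-08), and DUSP1 rose by 2.92. A second member, 2887308, rose by 3.16 ± 0.21 from 0 min levels of 5.02, 4.83 and 5.30. Single members beside CD55, which encodes a complement regulator, and between FOXC2 and FOXL1 rose by 2.23 at 40 min and 2.77 at 120 min. CD55 rose by 2.02 at 40 min, whereas FOXC2 changed by 0.27 and FOXL1 by 0.11 at 120 min, neither of them called. The member beside CD55 had 0 min levels of 5.32, 5.46 and 4.66. Its 0 min mean and that of 2887308 lay below the filter threshold, so both were kept through their later levels.

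Some gaps had their largest rise at 40 or 60 min. EREG–PARM1 held 74 unnamed probesets, 28 of them kept, and begins at the 3′ side of EREG, which encodes epiregulin. The reference places AREG, the gene of amphiregulin whose promoter is printed above, next on the same strand. The gap's levels were 6.47, 6.88 and 6.85 at 0 min and 9.22, 9.29 and 9.32 at 60 min, and these arrays did not overlap. The change at 60 min was 2.54 ± 0.15 (adjusted p = 2.80e-10), after 1.68 at 20 min and 2.19 at 40 min, and it was still 1.53 at 480 min. EREG rose by 1.58 ± 0.14 at 60 min and PARM1 changed by 0.12 ± 0.13. Called members formed an unbroken run of 18, from the second to the 19th kept member counted from EREG, with changes of 0.64 to 3.14. The 10 kept members outside the run had a median change of 0.05. Over all 74 probesets, dim ones included, the gap's median change was 0.03 and not called, and the mean in place of the median over the kept members gave 1.42.

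ALDH1A3–LRRK1 lies on the 3′ side of ALDH1A3, which encodes a retinaldehyde dehydrogenase of retinoic acid synthesis. All 14 probesets were kept and the 13 nearest ALDH1A3 were called higher at 60 min, with changes of 1.09 to 2.92. The gap's levels were 6.08, 6.34 and 6.29 at 0 min and 8.37, 9.08 and 9.00 at 60 min, clear of each other. It rose by 1.96 at 40 min, 2.58 ± 0.16 at 60 min (adjusted p = 1.03e-09) and 2.23 at 120 min, then fell back to 1.18 at 240 min and 0.07 at 480 min. ALDH1A3 was slower and longer, with 0.99 ± 0.10 at 60 min, 1.70 at 240 min and 1.15 at 480 min. At 60 min the gap rose by 1.59 ± 0.18 more than the gene (adjusted p = 3.18e-06), and LRRK1 changed by -0.02 ± 0.10. Among the sampled times, the gap was highest at 60 min and the gene at 240 min.

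DCUN1D3–ERI2 rose by 2.02 ± 0.24 at 40 min (adjusted p = 1.46e-05), from 5.74, 5.33 and 5.59 to 7.65, 7.45 and 7.62. DCUN1D3, a regulator of cullin neddylation, rose by 1.05 ± 0.14 and ERI2 changed by 0.06. The reference places these neighbours in the reverse of their id order, so the place of the gap is uncertain. PITPNB–TTC28, which contains MIR3199-1 on its strand, rose by 1.70 ± 0.24 at 120 min on 3 kept members, only 1 of which was called. That member had a 0 min mean of 5.115, below the filter threshold, and was kept through its later levels. Without it the gap would not have reached 3 kept members. The gap's change was 0.28 and lost its call with dim probesets included.

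**Figure D2:**
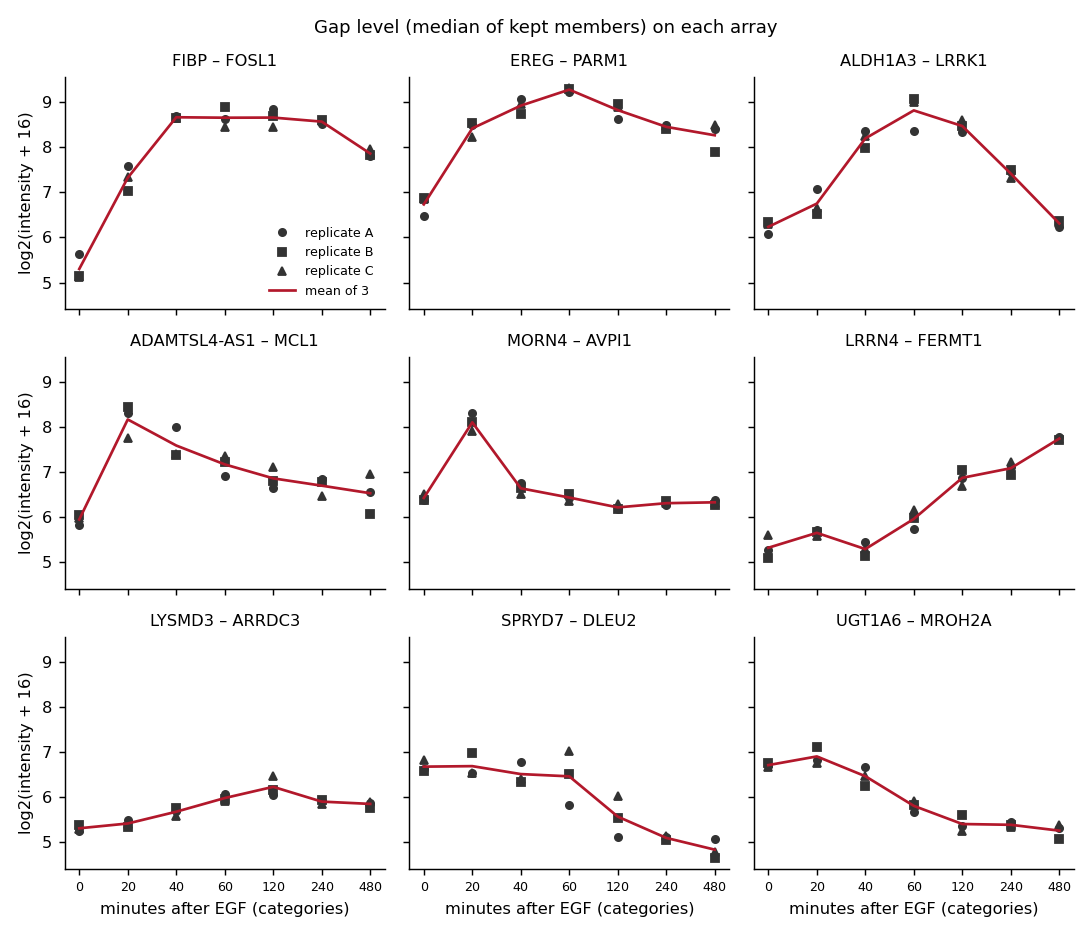
Log2(intensity + 16) of 9 gaps (median of the kept members) on each of the 21 arrays by time (categories, minutes after EGF). Symbols are replicates A, B and C and lines join the means of 3; MORN4–AVPI1 peaks at 20 min, ALDH1A3–LRRK1 at 60 min and LRRN4–FERMT1 at 480 min, while SPRYD7–DLEU2 and UGT1A6–MROH2A decline.

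Of the named gaps, 4 had their largest rise at 240 or 480 min. LRRN4–FERMT1, on the 3′ side of FERMT1, which encodes the integrin activator kindlin-1, had levels of 5.28, 5.09 and 5.60 at 0 min and 7.78, 7.70 and 7.74 at 480 min. It rose by 1.55 at 120 min, 1.76 at 240 min and 2.42 ± 0.13 at 480 min (adjusted p = 1.04e-10), with no overlap between 0 and 480 min. FERMT1 rose by 2.74 ± 0.11, and the difference of -0.32 ± 0.18 did not pass the test (adjusted p = 0.272).

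ATP6V1D–PLEK2, beside PLEK2, a pleckstrin family protein involved in actin organisation, rose by 2.16 ± 0.20 at 480 min, from 5.59, 4.90 and 5.27 to 7.32, 7.13 and 7.78. PLEK2 rose more, by 3.09 ± 0.15 (difference -0.93 ± 0.24, adjusted p = 0.0105), and ATP6V1D by 0.87. MAGOH–LRP8 rose by 1.81 ± 0.20 at 480 min, beside LRP8, an apolipoprotein E and reelin receptor, which rose by 1.59 ± 0.11. S100A3–S100A2 lies between a pair of calcium-binding protein genes that both rose, by 1.83 and 1.75 at 240 min, and the gap rose by 1.98 ± 0.14 (adjusted p = 5.69e-09). Its levels were 5.91, 6.25 and 6.28 at 0 min and 8.16, 8.14 and 8.09 at 240 min. For these late gaps, the arrays of 0 min and of the named time did not overlap.

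The largest fall was in ATAD2–FBXO32, beside FBXO32, a muscle atrophy ubiquitin ligase and FOXO target. Levels were 7.20, 8.52 and 8.57 at 0 min and 5.59, 5.51 and 5.55 at 480 min. Up to 60 min the gap was not called, with a change of 0.19 at 40 min. It then changed by -2.23 at 120 min, -2.45 at 240 min and -2.55 ± 0.23 at 480 min (adjusted p = 1.72e-07). FBXO32 fell by 3.98 ± 0.11. The 5 kept members nearest FBXO32 changed by -4.72 to -4.07 and were all called, while the other 6 lay between -0.36 and 0.43. With dim probesets included the gap's change was -0.30 and not called.

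SPRYD7–DLEU2 lies on the 3′ side of DLEU2, the long noncoding RNA whose annotated span holds the miR-15a and miR-16 sequences shown above. Its levels were 6.62, 6.58 and 6.81 at 0 min and 5.08, 4.64 and 4.77 at 480 min, without overlap. The gap changed by -1.11 at 120 min, -1.58 at 240 min and -1.84 ± 0.23 at 480 min (adjusted p = 1.25e-05), and all 10 kept members were called lower. DLEU2 fell by 1.35 ± 0.17 and SPRYD7 rose by 0.68 ± 0.12, so the gap moved opposite to SPRYD7 (difference -2.52 ± 0.22, adjusted p = 3.58e-08). A single member between DLEU2L and DLEU2, probeset 3514047, fell by 1.65 ± 0.30 at 240 min, when DLEU2 fell by 1.27.

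UGT1A6–MROH2A begins on the 3′ side of the probesets named for UGT1A6 alone. UGT1A6 belongs to the UGT1A cluster, whose glucuronosyltransferases share their last exons. It changed by -0.90 at 60 min and -1.45 ± 0.12 at 480 min (adjusted p = 6.49e-08), from 6.69, 6.76 and 6.67 to 5.31, 5.08 and 5.37. UGT1A6 fell by 1.23 ± 0.20. The gap also holds 28 probesets with several symbols, which do not count as members. Its members can therefore lie within the UGT1A cluster as well as beyond it.

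ZSCAN31–ZSCAN12, between zinc finger genes, fell by 1.75 ± 0.18 at 480 min, from 6.46, 6.97 and 6.83 to 4.89, 4.75 and 5.39. Here the gap followed ZSCAN31 on its far side (-1.85 ± 0.17) rather than ZSCAN12, which changed by 0.05 and on whose 3′ side it lies. The difference from ZSCAN12 was -1.80 ± 0.16 (adjusted p = 4.12e-08). With dim probesets included its change was -0.43 and not called.

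Of the other falls, LINC00313–HSF2BP (-1.10 ± 0.14 at 240 min) followed LINC00313, which fell by 0.77. Its neighbours stand in the reverse of their id order in the reference, so its place is uncertain. SUMO2–API5 (-1.08 ± 0.18 at 480 min, 17 of 23 kept members called) had neighbours that were not called, and these lie on different chromosomes in the reference. GTF2I–GTF2IP1 (-1.08 ± 0.16 at 60 min) and BMS1P1–AGAP5 (-1.06 ± 0.18 at 40 min) lie among segmental copies, where probes can be shared, and SH3YL1–ALKAL2 changed by -1.09 ± 0.19 at 60 min, by -0.60 with dim probesets included and by -0.67 as a mean over its members. NAP1L6P–NAP1L2 changed by -1.13 ± 0.30 at 480 min, but by -0.59 without 480 min replicate B and -0.91 without 0 min replicate A, neither called, and by 0.052 with dim probesets included. The falls at 20 and 40 min were small and rested on 3 kept members each. The changes were -0.95 ± 0.22 for KRTAP12-1–UBE2G2, -0.93 ± 0.19 for MEDAG–TEX26 and -0.90 ± 0.12 for ZNF542P–ZNF583. In KRTAP12-1–UBE2G2 no member was called, and the members changed by only -0.83, -0.36 and -0.0045. A median can fall on different members at different times, so the -0.95 is not the change of any probeset. Without the filter on dim probesets the changes of these gaps were -0.48, -0.21 and -0.04, and none was called. The MEDAG–TEX26 call was also lost with the mean over members (-0.50), with the array index as a covariate (-0.70) and without 0 min A (-0.86), 20 min A (-0.83) or 20 min B (-0.82).

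**Figure D3:**
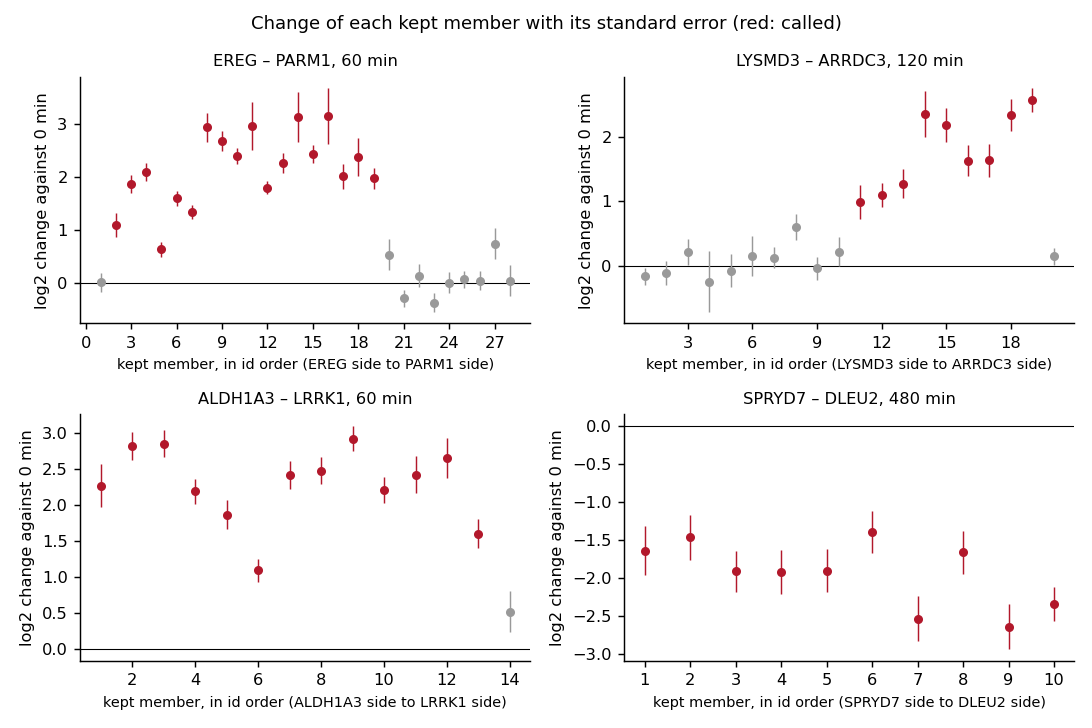
Log2 change against 0 min of each kept member, with its standard error, in id order across 4 gaps at the time named above each panel; red points are called members. In EREG–PARM1 the 18 called members form a run from the EREG side, in LYSMD3–ARRDC3 the 9 called members lie toward ARRDC3, and in SPRYD7–DLEU2 all 10 are lower.

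Among gaps that hold annotated noncoding genes from a list of such genes, 2 of 10 were called at some time, where 1278 of all 14685 gaps (8.70%) were. LYSMD3–ARRDC3 holds LUCAT1, a long noncoding RNA known as a target of stress and inflammatory signalling. Its levels were 5.24, 5.38 and 5.30 at 0 min and 6.04, 6.17 and 6.47 at 120 min, and did not overlap. The gap rose by 0.67 at 60 min, 0.92 ± 0.10 at 120 min (adjusted p = 2.52e-06) and 0.54 at 480 min. Its 9 called members, with changes of 0.99 to 2.57, formed an unbroken run from the 11th to the 19th of 20 kept members, toward ARRDC3, and the 11 others had a median of 0.12. Of these 9 members 8 had a 0 min mean below the filter threshold of 5.18 and were kept through their later levels, and 50 probesets of the gap were not kept, so the run describes kept members only. ARRDC3, an arrestin-domain gene and FOXO target, changed by -0.02 ± 0.14 and LYSMD3 by -0.53 ± 0.19, neither of them called. The gap rose by 0.93 ± 0.17 more than ARRDC3 (adjusted p = 0.000793), and over all 70 probesets its median changed by 0.12 and was not called.

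KLF14–PODXL holds MIR29A, MIR29B1, the long noncoding LINC-PINT and MKLN1-AS on its strand. It rose by 0.43 ± 0.10 at 120 min (adjusted p = 0.0074), from 6.06, 6.12 and 6.14 to 6.44, 6.50 and 6.67. Of 145 kept members 33 were called higher, and 16 of them formed a run from the 8th to the 23rd member counted from KLF14, the end at which the reference places the miR-29 genes, with changes of 0.94 to 1.50. The call was lost without 120 min replicate C (0.36) and with dim probesets included (0.12). KLF14 changed by 0.07 and PODXL by 0.16.

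By the F-test LMNTD2–LOC143666, which holds MIR210HG and MIR210, was also called (adjusted p = 0.0315), with changes of -0.31 to 0.51 that were not called at any single time. The 7 others include CACNA1A–BRME1 with MIR23A, MIR24-2 and MIR27A, LOC148696–CAMK1G with MIR205HG, PTTG1–GABRA6 with MIR146A and RTN4RL1–SMG6 with MIR132 and MIR212. The changes of these 4 lay between -0.25 and 0.12 over the 6 times. A gap's median hides a change in a small part of it, so the course of a single noncoding gene within these gaps was not measured.

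ATXN10–PPARA, which was picked after its values were seen because it holds MIRLET7BHG, MIRLET7A3 and MIRLET7B, fell. Its 65 kept members had median levels of 7.26, 7.22 and 7.18 at 0 min, 6.48, 6.61 and 6.57 at 60 min and 6.73, 6.67 and 6.65 at 480 min. No array at those later times reached the lowest at 0 min. The change was -0.67 ± 0.09 at 60 min (adjusted p = 7.77e-05), and ATXN10 changed by 0.09 and PPARA by -0.18 at that time.

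Gaps beside EGF-responsive genes were examined by lists of neighbours. Of 50 gaps that border immediate early transcription factor genes, 3, 2, 2, 3, 1 and 1 were called higher from 20 to 480 min, and 0, 0, 1, 1, 2 and 2 lower (2, 2, 3, 4, 3 and 3 lower at an unadjusted p under 0.05). Of all gaps 0.279%, 0.620%, 1.31%, 1.58%, 1.95% and 1.79% were called higher at these times and 0.163%, 0.497%, 0.797%, 2.26%, 1.76% and 2.28% lower, against which each list's counts are to be read. From 240 min on, 1 of 50 is near that share. Their median change lay between -0.07 and 0.05, and that of all gaps between -0.05 and 0.00. Beside FIBP–FOSL1 and ATF3–GARIN4, the rises included BIN3–EGR3, which reached 1.11 ± 0.13 at 40 min while EGR3, a zinc finger transcription factor, rose by 3.74. MR1–IER5 on the 5′ side of IER5 changed by -0.86 ± 0.12 at 480 min, whereas IER5 changed by 0.21 then, uncalled, after a called rise of 0.56 at 120 min. MR1, on whose 3′ side this gap lies, changed by -0.68 at 480 min.

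Of 39 gaps that border ERK and EGFR feedback genes, 3, 2, 5, 4, 5 and 3 were called higher by limma from 20 to 480 min and 0 lower at any time. At an unadjusted p under 0.05, 5, 6, 6, 5, 5 and 5 were higher and 0, 3, 0, 2, 0 and 0 lower. The list's median change lay between -0.04 and 0.05. DUSP5–SMC3, beside the nuclear ERK phosphatase gene DUSP5, had levels of 6.08, 5.60 and 5.96 at 0 min and 7.25, 7.18 and 6.97 at 40 min, without overlap. It rose by 1.26 ± 0.11 (adjusted p = 4.13e-07) against 2.78 ± 0.13 for DUSP5, and both declined after 60 min, to 0.34 and 1.46 at 120 min. KIF13B–DUSP4 rose by 1.16 ± 0.13 at 120 min, when DUSP4 rose by 1.86, and SPRED3–FAM98C by 1.21 ± 0.14, when SPRED3 rose by 0.82.

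Of 32 gaps beside cytokine and secreted factor genes, 1, 3, 3, 3, 3 and 2 were called higher by limma from 20 to 480 min and 0 lower at any time. At an unadjusted p under 0.05, 2, 3, 4, 5, 6 and 3 were higher and 1, 1, 3, 1, 1 and 0 lower. The list's median change lay between -0.02 and 0.05, near that of all gaps. In addition to EREG–PARM1 these included TGFA–ADD2, which lies on the 5′ side of TGFA, an EGF-family ligand gene. Its levels were 5.70, 5.89 and 5.60 at 0 min and 6.85, 6.48 and 6.85 at 40 min, with no overlap. At 40 min the gap had risen by 1.00 ± 0.15 (adjusted p = 0.000302), when TGFA had changed by 0.47 ± 0.14 (adjusted p = 0.126). At 120 min the order was turned, with 0.77 for the gap and 2.28 for TGFA. CXCL2–BTC was also called at 40, 120 and 240 min, with changes of 0.40 to 0.51.

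Of 55 gaps beside FOXO and quiescence genes, 1, 0, 1, 1, 2 and 2 were called higher from 20 to 480 min and 0, 1, 1, 3, 4 and 3 lower (4, 8, 3, 2, 4 and 4 higher and 6, 3, 3, 10, 7 and 4 lower at an unadjusted p under 0.05). At 480 min 2 higher and 3 lower of 55 lie near the shares of all gaps, and the list's median change lay between -0.10 and 0.00. CDKN1B–APOLD1, on the 3′ side of the gene of the cell cycle inhibitor p27, went from 6.40, 6.27 and 6.51 at 0 min to 5.40, 5.65 and 5.55 at 120 min, with a change of -0.86 ± 0.12 (adjusted p = 3.53e-05). It was already called at 40 min (-0.64), when CDKN1B changed by 0.09. CDKN1B fell by 0.77 at 120 min. YPEL5–SNORA10 rose by 1.07 ± 0.11 at 20 min only, from 5.89, 5.58 and 5.85 to 6.96, 6.93 and 6.64, and its change was 0.02 at 40 min.

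Across gaps, the change correlated more with the gene on whose 3′ side the gap lies than with the gene on whose 5′ side it lies. Direction was assigned to 10746 gaps, and all 4 surrounding genes were tested for 6122. Over these 6122 gaps, Pearson's r between the change of the gap and of the gene upstream of it was 0.17 to 0.30 over the 6 times, and 0.08 to 0.25 with the gene downstream. Among called gaps (32 at 20 min, 226 at 480 min) r was 0.53 to 0.72 with the upstream gene and 0.15 to 0.37 with the downstream gene. For the next gene out, over all 6122 gaps, r was 0.02 to 0.21 on the upstream and 0.03 to 0.21 on the downstream side. Among called gaps it was 0.04 to 0.35 and 0.03 to 0.33. At 20 and 40 min, r among called gaps was 0.30 and 0.33 with the next downstream gene. With the adjacent downstream gene it was 0.32 and 0.34, so these were nearly alike. These correlations are across gaps that share the same 21 arrays and are descriptions only.

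**Figure D4:**
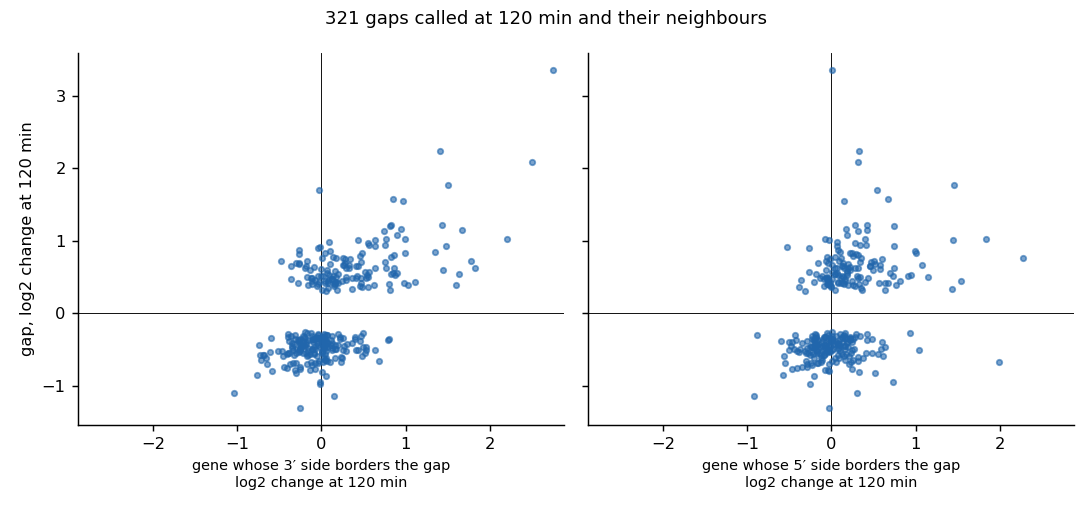
Log2 change at 120 min of the 321 called gaps whose neighbours were tested, against the change of the gene whose 3′ side borders the gap (left) and of the gene whose 5′ side borders it (right); each point is a gap. Points in the left panel follow the rising genes more than in the right, and many called gaps lie near 0 on both horizontal axes.

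Many called gaps had no called neighbour in the same direction. Of 8659 gaps with both neighbours tested, 131 were called higher at 60 min, and for 94 of these neither neighbour was called higher. The counts were 62 of 139 at 120 min, 76 of 175 at 240 min and 71 of 151 at 480 min. Among gaps called lower they were 153 of 182, 86 of 132 and 114 of 172 at those 3 times. As a share, 7.63% of gaps were called higher where only the upstream gene was called higher, 1.67% where only the downstream gene was, and 1.19% where neither was. At 120 min these shares were 5.17%, 3.08% and 0.894%, and for gaps called lower they were 8.52%, 3.75% and 1.87%. At 480 min, among falls, they were 5.52%, 5.09% and 1.49%, so upstream and downstream genes were nearly alike there. Where a single tested gene lay on the other strand between the neighbours (3247 gaps), r between gap and that gene was 0.13 to 0.30, and 0 of 13, 4 of 30, 5 of 56, 11 of 107, 16 of 86 and 29 of 102 called gaps had that gene called in the same direction from 20 to 480 min. Of all genes tested, 0.849%, 1.71%, 4.26%, 10.1%, 11.9% and 13.7% were called higher from 20 to 480 min. Those called lower were 0.0662%, 0.361%, 0.837%, 2.71%, 5.40% and 6.21%.

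Within gaps, the share of members called higher was highest close to the 3′ side of a gene called higher, although these were few of all called members. At 60 min, of 216 kept members next to the 3′ side of a gene called higher, 34 were called higher (15.7%), and the share was 16.5% for the next member, 8.96% for the third to the fifth and 1.30% beyond the 20th. Next to the 5′ side of a gene called higher, 9 of 203 were called higher (4.43%), and 2.06% beyond the 20th. At 120 min, 65 called members stood next to the 3′ side of a gene called higher, and 299 stood beyond the 20th on the 5′ side of such a gene. Beside any gene, called or not, the nearest member on the 3′ side was called higher in 2.13% at 60 min and on the 5′ side in 1.11%. Over the 6 times the nearest member on the 3′ side of a gene called higher was called higher in 11.6% to 17.9%, and on the 5′ side in 0% to 4.43%. Falls showed a like position at 480 min, with 12.5% of members nearest the 3′ side of a gene called lower and 4.74% nearest the 5′ side. They did not at 60 min, when 0 of 34 members nearest the 3′ side of such a gene were called lower. The share there was 5.31% for the third to the fifth member. At 20 min no member beside a gene called lower was called lower.

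**Figure D5:**
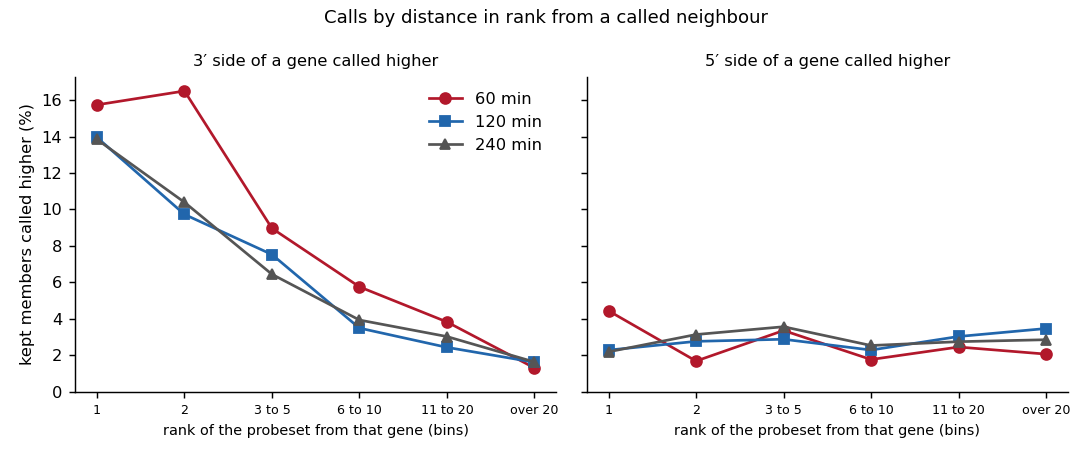
Percent of kept members called higher, by the rank of the member from a gene called higher at 60, 120 or 240 min (bins of rank), on the 3′ side (left) and the 5′ side (right) of that gene. The share falls from 15.7% at rank 1 to 1.30% beyond rank 20 at 60 min on the 3′ side and stays under 5% on the 5′ side.

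Gaps were also set beside the reference annotation. By the F-test 295 of 2643 placed gaps with no reference gene between the neighbours were called (11.2%), against 187 of 4582 with a gene on the gap's strand (4.08%). Among the latter, the share was 3.59% of 4066 gaps with a long noncoding gene and 5.80% of 448 with a microRNA gene, and 6.97% of all placed gaps were called. These classes also differ in length and number of members, and neither the difference in share nor the part of either feature was tested.

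The arrays measured bulk RNA, so fewer cells carrying a transcript and less of it per cell cannot be told apart. Of the basal mammary markers 7 of 7 tested lay above the median gene, as did 3 of 5 luminal and 2 of 6 fibroblast markers. The median percentile was 99.4 for the basal, 94.4 for the luminal and 32.9 for the fibroblast markers. The order of ids was checked against the reference. The neighbours lay on the same chromosome for 86.1% of 14442 gaps, in increasing order for 95.2% of those, and on the same strand for 94.8% of 7767. Misplaced or outdated symbols can still give a gap a false neighbour.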

How the data were processed

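Total RNA of 21 cultures was freed of ribosomal RNA, labelled with biotin and hybridised to 1 array each, per the labels' protocols. The deposited values are linear intensities, 1 for each probeset on each array, summarised with PLIER in Affymetrix Expression Console 1.1 per the submitters' processing notes; the build and the settings were not given in the sources used here. Array medians ran from 20.4 to 20.6, and the number of arrays, 3 per time, limits the precision. The median SD between arrays of 1 time was 0.268 for members and 0.154 for gaps (log2).

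Intensities were used as deposited, as log2(intensity + 16), so changes of dim probesets are understated. Changes were tested with limma 3.58.1 (lmFit, eBayes, R 4.3.3) on 7 time means over all 21 arrays with 14 residual degrees of freedom, two-sided, with Benjamini-Hochberg adjustment over 692116 kept probesets or over 31299 gaps and genes. Replicates are separate cultures per the labels. Strand and order came from the RefSeq gene table (GRCh38.p14) and from the blocks in which ids run, which gave the same strand for 98.6% of 15940 gaps. On simulated data at 120 min, 48% of gap changes of 0.5 and 90% of changes of 1 (log2) were recovered among 31299 features, and 31% of member changes of 1 and 89% of changes of 2 among 692116. Of the simulated calls 6.12% were false for gaps and 5.51% for members. The simulation changed 100 features per size and drew independent noise, so it lacked deviations that the features of an array share.

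Gaps were named by rule: among gaps called at a time with no overlap of its 3 arrays with those at 0 min, the 15 largest rises and 10 largest falls, the 3 largest rises and 2 largest falls per time, and called gaps holding a gene of the noncoding list. For smaller gaps the 5 largest single rises and falls were taken. In several rising gaps, members of the longest unbroken called run had a 0 min mean below the filter threshold. These were 1 of 2 in ATF3–GARIN4, 2 of 3 in ATP6V1D–PLEK2 and 2 of 4 each in KRT6C–KRT6A, S100A3–S100A2 and TGIF1–ZNF592. In PITPNB–TTC28 this held for the only called member. They were fewer in EREG–PARM1 (2 of 18), ALDH1A3–LRRK1 (2 of 13), MORN4–AVPI1 (0 of 7) and DCUN1D3–ERI2 (0 of 3). The order of the largest rises therefore refers to kept members and is not independent of the filter. Members and lists were chosen with earlier results of these data known. Comparisons of a gap with its neighbour in 1 fit, the check of placement, the other-strand comparison, and the gaps named from the lists of neighbours or for let-7 were added after the values were seen. Alternatives covered scaling, pseudocount, filter, summary, block, covariate and left-out arrays.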

Additional observations from a re-analysis of the deposited data

How the results depend on the processing

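Scaling between arrays (quantile normalisation or centring) moved no count of calls by over 1.5 times. With the array index as a covariate, 6008 members and 348 gaps were called at 40 min, 17692 members and 1066 gaps at 480 min, and 27944 members and 1779 gaps by the F-test; the share of called gaps that were higher at 480 min went from 44.0% to 54.2%. Keeping only probesets above the 75th percentile gave 551 members at 20 min. Without a filter on dim probesets 42, 101, 203, 337, 358 and 353 gaps were called from 20 to 480 min. With the mean in place of the median over a gap, 259, 469, 971 and 878 gaps were called at 40, 60, 120 and 240 min. The cause of these shifts was not tested.

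Leaving out each array in turn gave 441 to 3151 members at 20 min, 1672 to 3244 at 40, 2517 to 7306 at 60, 3961 to 11172 at 120, 3644 to 9211 at 240 and 4918 to 11034 at 480 min. For gaps the ranges were 30 to 321, 91 to 179, 139 to 360, 290 to 664, 282 to 613 and 333 to 646. The F-test called 12270 to 22481 members and 828 to 1436 gaps.

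With the replicate letter as a block, 739, 2657, 5673, 7700, 7516 and 9305 members and 59, 139, 300, 519, 519 and 545 gaps were called from 20 to 480 min, and 14897 members and 976 gaps by the F-test. No count moved by over 1.5 times. The letters do not pair the arrays: deviations of same-letter arrays at different times correlated at -0.51 to 0.53 (mean -0.0099, 19 of 63 pairs above 0.1), against a mean of 0.0048 for other letters.

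Of 910 alternatives for the 30 named gaps, 872 kept the direction and the call, 37 lost the call and 1 reversed, NAP1L6P–NAP1L2, which changed by 0.052 with dim probesets included. For 18 of the 30 gaps no alternative run ended the call. The call of KRTAP12-1–UBE2G2 at 20 min was the least stable of the 30 and was lost under 19 of its alternatives. A pseudocount of 64 lowered 17 named changes by over 1.5 times and ended the call of KRTAP12-1–UBE2G2 alone. A gap's median rests on the members the filter leaves.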
